A study of Hydra vulgaris with 36 samples.

Results

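Described here are the differences between Hydra treated with the gamma-secretase inhibitor DAPT and control animals 3 h after the inhibitor was taken away. The members are the 6 DAPT and the 6 DMSO libraries of that time, 12 of the 36 libraries of the series, chosen by the treatment, the time and the replicate number in their labels. The animals were whole polyps of Hydra vulgaris of the Basel strain, a freshwater cnidarian, starved for 24 h. DAPT animals had spent 48 h in 20 µM DAPT with 1% DMSO, renewed at intervals of 12 h, and then 3 h in 1% DMSO without the inhibitor. DMSO animals had spent the same 48 h and the following 3 h in 1% DMSO, so every group carried the solvent and no group was free of it. About 25 animals were pooled per sample, and the labels call the 6 samples of a group biological replicates. The libraries of the end of the incubation (0 h) and of 6 h, 12 of each, are used for comparison.

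The Notch receptor is cut by gamma-secretase after it has bound a ligand on a neighbouring cell, and the part that is released enters the nucleus and switches on target genes together with the DNA-binding protein RBPJ. Genes of the Hes family of repressors are its best-known targets in animals, and HyHes is the member known from Hydra. In Hydra, blocking Notch is known to disturb the differentiation of nematocytes, the stinging cells, and the patterning of the head. A gene under direct control of Notch may be among the first to return once the inhibitor is gone, and the study's paper describes such an early recovery of Notch targets. The deposited genes carry identifiers of a Trinity assembly without names, so HyHes and the other genes of the paper were not looked up, no list of pathway or cell type genes was scored, and the labelled tissue was not checked against markers. Genes are therefore described by identifier, abundance, fold size and time.

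The total count was 6617621 to 9971841 in the DAPT and 6563592 to 12684174 in the DMSO libraries of 3 h. In the files the treatment stands as a letter, and P was read as DAPT and S as DMSO, since each letter occurs in that word alone. With the opposite reading every direction below would be mirrored. A pair of libraries stood apart. In DAPT replicate 2 the 20 top genes held 32.2% of all counts, against 25.7% to 27.1% in the other 5 DAPT libraries, and in DMSO replicate 2 they held 39.03%, against 24.8% to 29.0% in the other 5 DMSO libraries. Between libraries, genes varied more in DAPT than in DMSO animals at this time. The median SD of log2 CPM (counts scaled to a common library size) was 0.44 in DAPT and 0.28 in DMSO, and the SD was larger in DAPT for 82.7% of the 11179 genes tested. Without replicate number 2 these medians were 0.38 in DAPT and 0.25 in DMSO. At 0 h they were 0.30 in DAPT and 0.35 in DMSO, and at 6 h 0.38 in DAPT and 0.45 in DMSO. The part of this spread in the results below was not tested.

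After 3 h without the inhibitor a broad difference remained, mostly of lower levels in DAPT animals. Of 11179 genes tested, 513 were lower and 153 were higher in DAPT, which is 4.59% and 1.37% of the genes tested. Together they made 666 genes or 5.96%, and 77% of them were lower. The genes were called by edgeR's quasi-likelihood test on the 12 libraries alone, at a Benjamini-Hochberg adjusted p under 0.05. At an unadjusted p under 0.05 there were 1614 genes, where chance would give 559. Whole animals were measured, so fewer cells of a type and less RNA per cell cannot be told apart. The median log2 fold change over all tested genes was 0.05. Without replicate number 4 or 5 the genes called higher were 92 and 97, and with surrogate variables, which take up variation between libraries that the groups do not explain, 1749 genes were called, 65.9% of them lower.

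**Figure D1:**
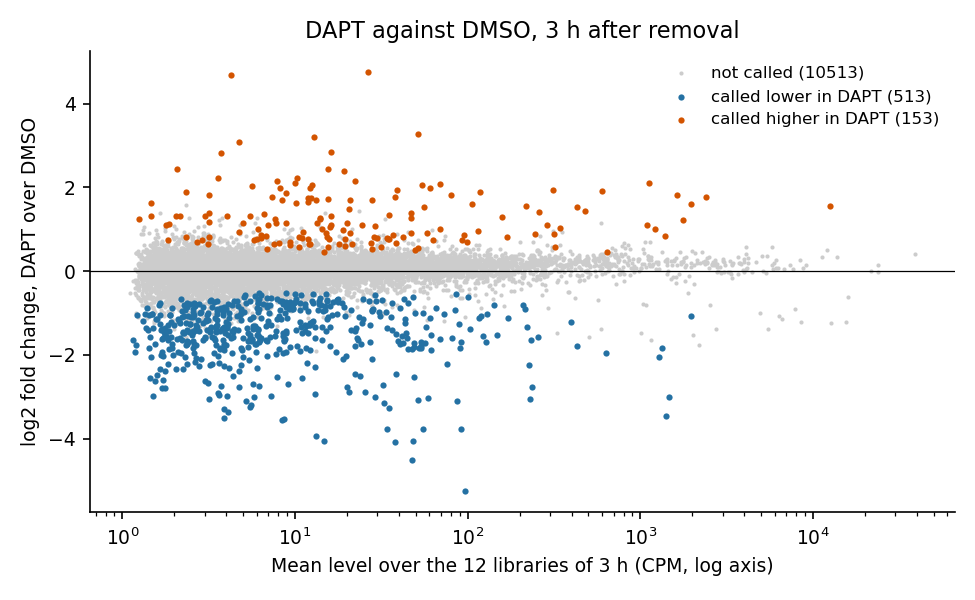
Each point is a gene, with its mean level over the 12 libraries of 3 h in CPM on a log axis and its log2 fold change, DAPT over DMSO, on the vertical axis. The 513 genes called lower (blue) reach farther from 0 than the 153 called higher (orange), down to -5.26 against up to 4.76.

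Most genes called had a fitted difference of at least 2-fold, but small differences could hardly be called. The smallest called were -0.52 among the lower and 0.45 among the higher genes on the log2 scale. The sizes come from the libraries that gave the calls, so they are inflated. On the log2 scale the median difference of the lower genes was -1.40 (median SE 0.24), and the middle 50% of them lay between -1.81 and -0.98. The higher genes had a median of 1.15 (median SE 0.21), and their middle 50% lay between 0.80 and 1.71. At least 2-fold lower were 378 genes (73.7% of the lower ones), at least 4-fold 93 (18.1%), at least 8-fold 26 (5.07%) and at least 16-fold 5. Among the higher genes 91 (59.5%) differed at least 2-fold, 20 (13.1%) at least 4-fold, 5 at least 8-fold and 2 at least 16-fold. Past 4-fold every tested gene was also called, with 93 lower and 20 higher. Between 2- and 4-fold this was not so, since 97 genes with a fitted difference of at least 2-fold, 72 lower and 25 higher, were not called. A test for a difference beyond 1.5-fold passed in 246 lower and 63 higher genes.

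In many genes the groups lay fully apart. All 6 DAPT libraries were below all 6 DMSO libraries in 406 genes, 3.63% of those tested, and above them in 114 genes, 1.02%. It held for 370 of the 513 genes called lower (72.1%) and for 99 of the 153 called higher (64.7%), all called on the same libraries. Low levels in DAPT were common among the lower genes. Their median gene stood at 3.21 CPM in DAPT and 8.73 CPM in DMSO animals, and 65 of them averaged under 1 CPM in DAPT. Genes low in both groups were removed by the filter, which such genes could pass through their DMSO libraries. The median higher gene stood at 22.05 CPM in DAPT and 9.53 CPM in DMSO animals. The median over all tested genes was 7.58 CPM in DAPT and 7.68 CPM in DMSO.

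The balance of lower and higher genes shifted with abundance, taken as the mean CPM over the 12 libraries. This mean includes the DAPT libraries, so the difference itself moves lower genes down and higher genes up in abundance. At 100 CPM and over by the DMSO mean alone stood 39 lower and 22 higher genes, and by the DAPT mean alone 15 and 31. How much of the shift comes from this was not tested. Of 6373 genes at 1 to 10 CPM, 330 were lower and 49 higher, which puts 87.1% of the calls on the lower side. At 10 to 100 CPM, 157 of 3874 genes were lower and 78 higher (66.8% lower), and at 100 to 1000 CPM 21 of 761 were lower and 17 higher (55.3% lower). At 1000 CPM and over, 5 of 171 genes were lower and 9 higher (35.7% lower). The share of genes called in either direction was nearly level, at 5.95%, 6.07% and 4.99% in the first 3 classes and 8.19% in the last. Precision did not rise throughout with abundance, as the median SE of the log2 fold change was 0.25, 0.19, 0.18 and 0.22 in the 4 classes. In the class of 1000 CPM and over the balance depended on the fit and on 1 library: 12 genes were lower and 9 higher without DAPT replicate 2, and 14 lower and 10 higher by DESeq2.

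**Figure D2:**
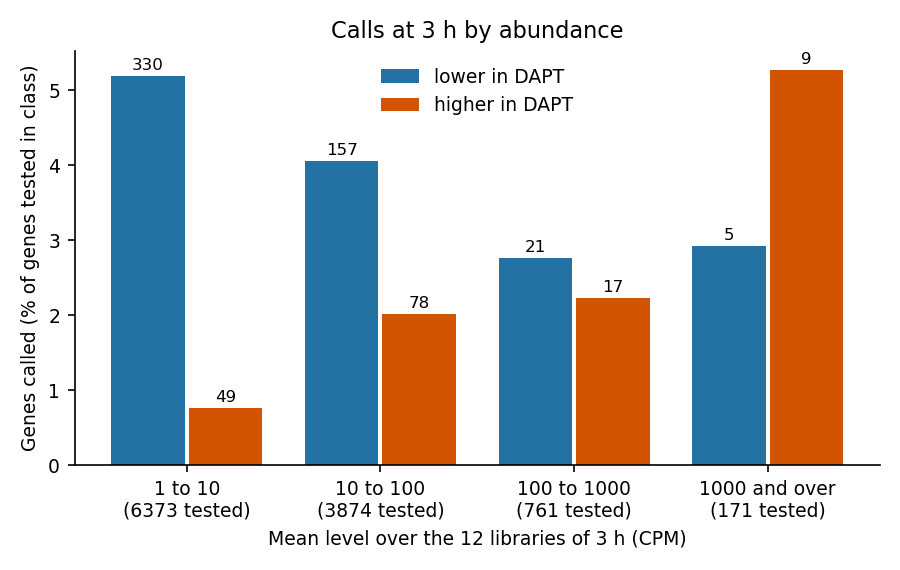
Bars give the genes called lower (blue) and higher (orange) in DAPT as a percentage of the genes tested in each class of mean CPM, with the number of genes above each bar. The lower genes take a smaller share in each of the first 3 classes from left to right, from 5.18% to 2.76%, while the higher genes go from 0.769% to 2.23% and to 5.26% in the most abundant class.

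Among the lower genes with the smallest p, the level in DAPT animals was a small fraction of that in controls. TRINITY_DN448_c0_g1 had 3.63 to 5.36 CPM in the 6 DAPT libraries, with a median of 4.19 CPM, against 51.7 to 84.2 CPM in DMSO, with a median of 73.6 CPM. No library came near the other group. The gene was 16.8-fold lower, with a log2 fold change of -4.07 (SE 0.17, edgeR adjusted p = 3.44e-09). TRINITY_DN11402_c0_g1 was the gene with the largest fold of all, 38.2-fold lower, at 3.46 to 7.45 CPM in DAPT (median 4.61) against 131.2 to 285.5 CPM in DMSO (median 179.7). Its log2 fold change was -5.26 (SE 0.25, edgeR adjusted p = 1.34e-08). TRINITY_DN629_c0_g1 had 1.73 to 5.58 CPM in DAPT (median 4.20) and 76.6 to 106.9 CPM in DMSO (median 89.5), and was 22.8-fold lower. These 3 had the largest folds among all genes called lower.

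The other lower genes of this rank spanned a range of levels. TRINITY_DN16506_c0_g1 had 1.06 to 2.25 CPM in DAPT (median 1.58) and 17.4 to 35.6 CPM in DMSO (median 23.8), a 15.2-fold difference. TRINITY_DN40055_c0_g1 had 8.82 to 20.0 CPM in DAPT (median 11.04) against 124.1 to 217.1 CPM in DMSO (median 169.8), and was 13.7-fold lower. In TRINITY_DN16100_c0_g1 the fold was smaller and the libraries were close together: 9.23 to 12.1 CPM in DAPT (median 10.5) and 39.4 to 49.2 CPM in DMSO (median 45.7), a 4.24-fold difference with an SE of 0.13 on the log2 scale. None of these 6 genes had a DAPT library that reached the DMSO range, and the largest adjusted p among them was 1.04e-07 in edgeR's test. At 0 h the same genes differed by -2.11 to -5.35 on the log2 scale, and at 6 h by -1.89 to -4.88, and all 6 were called lower at both times.

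The higher genes with the smallest p held genes nearly silent in controls as well as genes already well expressed there. TRINITY_DN2171_c0_g1 had 4.93 to 10.3 CPM in DAPT (median 8.51) and 0.182 to 0.437 CPM in DMSO (median 0.291), which rests on 2 to 5 reads per DMSO library, 17 in all, so its fitted log2 fold change of 4.67 (SE 0.27, edgeR adjusted p = 7.30e-08) depends on few reads. TRINITY_DN2004_c0_g1 had the largest fold, 27.1-fold, at 21.9 to 82.0 CPM in DAPT (median 54.3) against 0.798 to 4.12 CPM in DMSO (median 1.64; log2 fold change 4.76, SE 0.40, edgeR adjusted p = 2.22e-06). TRINITY_DN42118_c0_g1 had 5.97 to 11.05 CPM in DAPT (median 8.57) and 0.364 to 1.71 CPM in DMSO (median 0.997). In all 3 the groups did not overlap.

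Better expressed in controls was TRINITY_DN1523_c0_g1, at 147.9 to 225.5 CPM in DAPT (median 177.1) and 38.9 to 54.4 CPM in DMSO (median 52.3), a 3.68-fold difference (edgeR adjusted p = 9.19e-07). TRINITY_DN5094_c0_g1 had 20.96 to 28.3 CPM in DAPT (median 23.04) and 5.64 to 8.30 CPM in DMSO (median 7.47), 3.32-fold higher. TRINITY_DN3649_c0_g2 had 12.3 to 33.7 CPM in DAPT (median 23.1) and 1.77 to 4.37 CPM in DMSO (median 2.14), 9.17-fold higher. TRINITY_DN343_c0_g1 had the largest fold among the higher genes after TRINITY_DN2004_c0_g1 and TRINITY_DN2171_c0_g1, at 34.1 to 208.1 CPM in DAPT (median 79.3) and 4.48 to 22.6 CPM in DMSO (median 7.10; log2 fold change 3.28, SE 0.48). The 6 higher genes with the smallest p differed by 1.98 to 4.97 on the log2 scale at 0 h and by 1.12 to 4.02 at 6 h. TRINITY_DN42118_c0_g1 was the one of them not called at 6 h (log2 fold change 1.76, edgeR adjusted p = 0.0668).

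**Figure D3:**
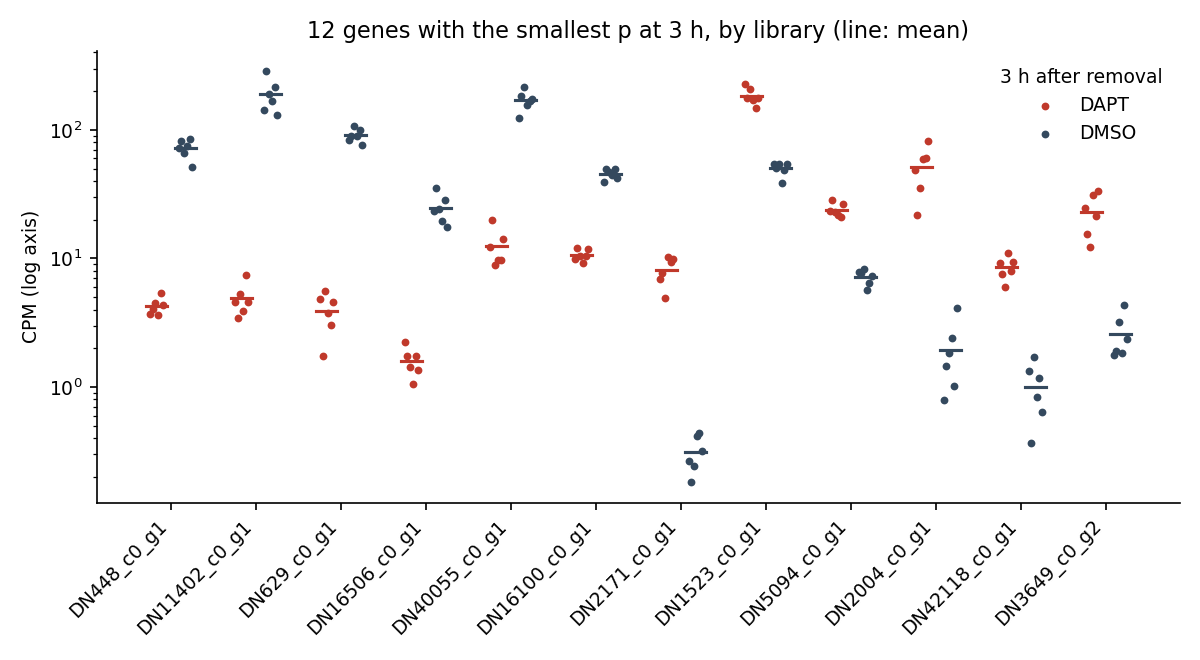
CPM on a log axis in every library of 3 h for the 12 genes with the smallest p, 6 lower and 6 higher, with DAPT libraries in red left of DMSO libraries in dark blue and a line at each mean. In none of the 12 genes do the groups overlap.

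The most abundant genes called higher were among the most abundant of all. TRINITY_DN3406_c0_g2 had 9960 to 25004 CPM in DAPT (median 21131) and 4316 to 10872 CPM in DMSO (median 5765), 2.93-fold higher, with a log2 fold change of 1.55 (SE 0.28, edgeR adjusted p = 0.00281). The groups overlapped here, since DAPT replicate 3 lay below DMSO replicate 6. TRINITY_DN1822_c0_g1 had 1969 to 5256 CPM in DAPT (median 3870) and 815 to 1762 CPM in DMSO (median 963), 3.43-fold higher, and TRINITY_DN1822_c0_g2, of the same assembly component, was 3.03-fold higher. Reads of such close relatives can be divided between them in the counting, so each value of this pair is uncertain. The same holds for TRINITY_DN3406_c0_g2, whose component has another gene called higher. TRINITY_DN69_c0_g1 had 1444 to 3578 CPM in DAPT (median 2687) and 806.3 to 1519 CPM in DMSO (median 1059), 2.33-fold higher.

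Of the 4 most abundant genes called lower, 3 had folds from 3.55 to 10.9. TRINITY_DN8271_c0_g1 had 61.1 to 483.7 CPM in DAPT (median 178.8) against 774.7 to 6912 CPM in DMSO (median 1728), 10.9-fold lower, with a log2 fold change of -3.45 (SE 0.59, edgeR adjusted p = 0.00163). TRINITY_DN744_c2_g1 was 7.96-fold lower, at 80.5 to 864.8 CPM in DAPT (median 225.2) against 1378 to 6150 CPM in DMSO (median 2002). TRINITY_DN3114_c0_g2 was 3.55-fold lower, at 354.1 to 1080 CPM in DAPT (median 521.3) against 1382 to 3562 CPM in DMSO (median 1762). The groups did not overlap in these 3 genes, although each spanned several-fold within a group. TRINITY_DN121_c1_g1, the most abundant gene called lower, had 711.2 to 2253 CPM in DAPT (median 1248) and 2237 to 3349 CPM in DMSO (median 2537), with only DAPT replicate 2 reaching the DMSO range. Its log2 fold change was -1.07 (SE 0.24, edgeR adjusted p = 0.0143), and the call was lost in the edgeR fit over 36 libraries and without replicate number 1, 4 or 5, with adjusted p of 0.0658 to 0.238.

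To follow recovery within 3 h, the genes called at 0 h were taken, from libraries that share none with those of 3 h. With the same test on the 12 libraries of 0 h, 638 genes were lower (5.29% of 12051) and 228 higher (1.89%), 7.19% in all. Of these, 603 lower and 220 higher genes were tested at 3 h. In 600 of the 603 and 219 of the 220 the fitted difference at 3 h had the sign of 0 h, and 0 were called in the opposite direction. Called again in the same direction were 382 of the lower genes (63.3%, against 4.59% of all genes tested) and 124 of the higher ones (56.4%, against 1.37%). The 124 became 78 without replicate number 4 and 82 without number 5, left out at both times. The median log2 fold change of the lower genes was -1.15 at 3 h, with -1.28 at 0 h. Among the higher genes it was 0.85 at 3 h, with 1.06 at 0 h. The fold changes at 0 h are those the genes were chosen on, so they are inflated and a smaller median at 3 h is no sign of recovery by itself.

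How often a gene was called again depended on its fold at 0 h. Of the genes lower by less than 2-fold at 0 h, 88 of 202 were called again (43.6%), of those lower by 2- to 4-fold 165 of 259 (63.7%), by 4- to 8-fold 89 of 102 (87.3%), and by at least 8-fold 40 of 40. Genes higher at 0 h were called again in 37 of 104, 63 of 92, 19 of 19 and 5 of 5 cases in the same 4 classes. Differences under 1.5-fold in the direction of 0 h, or none in that direction, were measured at 3 h for 88 lower genes (14.6% of 603) and for 59 higher genes (26.8% of 220). Of these 88 lower genes, 71 had been less than 2-fold lower at 0 h and 17 had been 2- to 4-fold lower. Of the genes at least 4-fold lower at 0 h, 142 were tested at 3 h, and all 142 were still at least 2-fold lower at 3 h. Likewise all 24 tested genes that had been at least 4-fold higher were still at least 2-fold higher. A gene could lose part of its difference and pass this limit. The difference was smaller at 3 h in 85 of the 102 genes lower by 4- to 8-fold and in 33 of the 40 lower by at least 8-fold. Among the higher genes it was smaller in 17 of 19 and 3 of 5. These genes too were chosen on their fold at 0 h.

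**Figure D4:**
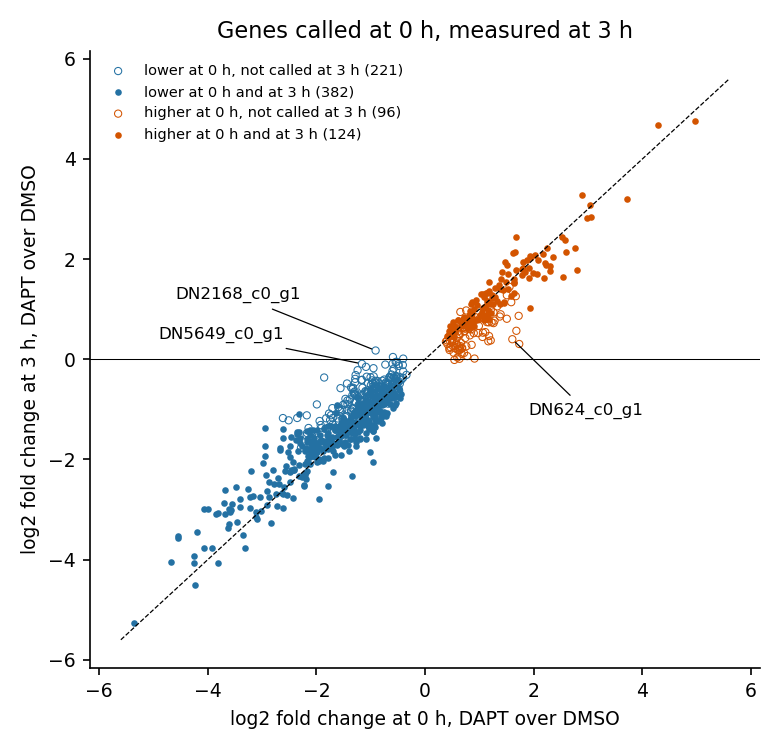
Each point is a gene called at 0 h, with its log2 fold change, DAPT over DMSO, at 0 h on the horizontal and at 3 h on the vertical axis; filled points were called again at 3 h, open points were not, and the dashed line marks equal values. The points lie along the line in both directions, and of the lower genes 221 are open and 382 filled.

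Seen the other way, the genes called at 3 h had mostly been different before. Of the 513 lower genes, 502 were tested at 0 h, all 502 had a fitted difference below 0 there, and 382 were called (76.1%, against 5.29% of all genes tested at 0 h). At 6 h, 239 of the 470 tested were called lower (50.9%), against 2.64% of all genes tested at 6 h. For the 153 higher genes, 124 were called higher at 0 h (81%, against 1.89%) and 73 of 148 at 6 h (49.3%, against 0.766%). Their medians were 1.14 at 0 h, 1.15 at 3 h and 0.88 at 6 h on the log2 scale, and those of the lower genes -1.38, -1.40 and -1.25. The genes were chosen on their values at 3 h, so the medians of that time are inflated. Near-equal medians at 0 h and 3 h therefore do not show an unchanged difference. There were 111 lower and 25 higher genes with a call at 3 h and at neither other time, with median log2 fold changes of -1.04 and 0.81 at 3 h, and of -0.68 and 0.54 at 0 h. A gene not tested at another time counts here as not called at that time. Such a count does not show a difference limited to 3 h, which needs the test of the change itself.

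That test, of whether DAPT and DMSO differed by another amount at 3 h than at 0 h, used the 24 libraries of both times and passed in 0 of 12243 genes (0%) in edgeR's fit. At an unadjusted p under 0.05 there were 165 genes, against 612 by chance, but 547 without replicate number 1, 232 without number 2 and 804 with surrogate variables. The smallest adjusted p was 0.9997 in edgeR's fit, and 0.328 without replicate number 2. DESeq2 called 0 genes, with a smallest adjusted p of 0.0893, and limma-voom 0. The median SE of this change was 0.31 on the log2 scale, so for a typical gene the unadjusted 95% interval reached 0.61 to either side. A return of a small difference was not detectable in edgeR's fit. Small p-values were fewer there than chance would give, so the test may be too strict, and the reason was not tested. After adjustment over 12243 genes larger changes failed too. TRINITY_DN624_c0_g1 changed by -1.22 (edgeR unadjusted p = 0.000195, adjusted p = 0.9997). The 0 calls therefore do not show that larger differences stayed. With surrogate variables 10 genes were called, 9 with a change upward. Only TRINITY_DN5649_c0_g1 and TRINITY_DN624_c0_g1 of these had been called at 0 h, and some of the others were not tested there. TRINITY_DN5934_c0_g1, TRINITY_DN38639_c0_g1, TRINITY_DN4639_c0_g1, TRINITY_DN2809_c1_g1 and TRINITY_DN3382_c0_g1 were tested at 0 h and not called (edgeR adjusted p of 0.0687 to 0.251). Without surrogate variables their log2 fold changes were -2.80 to -1.63 at 0 h and -0.05 to 0.54 at 3 h. They were picked for this change.

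Genes with the smallest unadjusted p for a return toward control were picked for that change and are described only. TRINITY_DN2168_c0_g1 stood at 8.77 ± 2.75 CPM in DAPT and 7.73 ± 1.35 CPM in DMSO animals at 3 h, against 3.67 ± 0.904 CPM in DAPT and 6.86 ± 2.05 CPM in DMSO animals at 0 h (SD, n = 6 each). Its log2 fold change was 0.18 at 3 h (SE 0.21) and -0.91 at 0 h (SE 0.21). TRINITY_DN5649_c0_g1 stood at 17.5 ± 3.69 CPM in DAPT and 18.6 ± 4.14 CPM in DMSO at 3 h, and at 7.61 ± 2.56 CPM in DAPT and 16.95 ± 6.62 CPM in DMSO at 0 h. In both genes the DAPT libraries of 3 h overlapped with the DMSO libraries of that time.

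TRINITY_DN5649_c0_g1 changed by 1.06 on the log2 scale between the times (SE 0.34, edgeR adjusted p = 0.9997, unadjusted 0.00448), and by 1.08 with surrogate variables, where it was called (edgeR adjusted p = 0.00515). TRINITY_DN2168_c0_g1 changed by 1.07 (SE 0.30, edgeR adjusted p = 0.9997). At 6 h neither was called, with log2 fold changes of 0.44 and 0.35. TRINITY_DN2374_c0_g1, also among those picked, was low everywhere, at 1.497 ± 0.785 CPM in DAPT and 1.95 ± 0.764 CPM in DMSO at 3 h.

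Among the genes higher at 0 h, TRINITY_DN624_c0_g1 stood at 11.4 ± 4.04 CPM in DAPT and 8.77 ± 0.643 CPM in DMSO at 3 h, and at 16.6 ± 2.65 CPM in DAPT and 5.40 ± 0.562 CPM in DMSO at 0 h, so the DAPT mean was lower and the DMSO mean higher at the later time. That the difference at 3 h was not called rested on 1 library: DAPT replicate 2 had 3.27 CPM and the other 5 DAPT libraries 10.5 to 13.8 CPM, all above the 7.46 to 9.03 CPM of DMSO. With all libraries the log2 fold change at 3 h was 0.40 (SE 0.24, edgeR adjusted p = 0.511), and without DAPT replicate 2 it was 0.57 and was called (edgeR adjusted p = 0.0105). TRINITY_DN11146_c0_g1 was still 3.43-fold higher, at 6.73 to 13.6 CPM in DAPT (median 12.3) and 2.18 to 5.49 CPM in DMSO (median 2.90; edgeR adjusted p = 0.000244), after a log2 fold change of 2.79 at 0 h. TRINITY_DN3030_c0_g1 had 4.41 to 7.80 CPM in DAPT and 3.50 to 6.18 CPM in DMSO, and its log2 fold change of 0.46 did not pass (edgeR adjusted p = 0.267), though it did with surrogate variables (0.48, edgeR adjusted p = 0.0469). Between the times these genes changed by -1.22 (SE 0.28), -1.03 (SE 0.31) and -0.73 (SE 0.25) on the log2 scale, in the order named. None passed (edgeR adjusted p = 0.9997 each). With surrogate variables TRINITY_DN624_c0_g1 changed by -1.11 and was called (edgeR adjusted p = 0.00515).

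A gene list free of the choice at 0 h and 3 h came from 6 h, where 296 genes were lower and 86 higher (3.40% of the 11225 tested). In the 291 lower genes tested at all times, the median log2 fold change was -1.47 at 3 h and -1.56 at 0 h, and the difference was smaller at 3 h in 170 genes (58.4%). In the 86 higher genes it was 1.35 at 3 h and 1.34 at 0 h, and smaller at 3 h in 41 genes (47.7%). Such genes are by choice those still different at 6 h, so early returns are left out of this list.

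Summed over each set, the genes lower at 0 h made up 6.58 ± 2.74% of all counts in DAPT and 15.03 ± 6.21% in DMSO libraries of 3 h (exact permutation test, two-sided p = 0.00433, n = 6 each). Genes higher at 0 h took 4.75 ± 1.12% in DAPT and 1.88 ± 0.451% in DMSO (exact p = 0.00216, the smallest possible). The DAPT libraries held 3.08% to 10.3% in the lower set, against 8.60% to 26.6% in DMSO, so the groups overlapped. In the higher set they held 3.57% to 6.21%, against 1.297% to 2.64%, with no overlap.

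Most of the share lay in a few very abundant genes, in the lower and in the higher set. There were 19 genes with at least 1000 CPM among those lower at 0 h, and they made up 5.77 ± 2.63% of all counts in DAPT and 12.99 ± 5.96% in DMSO at 3 h (exact p = 0.00866). Without replicate number 2 these shares were 5.46 ± 2.81% in DAPT and 10.7 ± 2.55% in DMSO (exact p = 0.0238, n = 5 each). The other 619 genes took 0.815 ± 0.152% in DAPT and 2.05 ± 0.302% in DMSO (exact p = 0.00216). In the higher set, 8 genes with at least 1000 CPM took 3.46 ± 0.995% in DAPT and 1.26 ± 0.352% in DMSO. The other 220 higher genes took 1.29 ± 0.153% and 0.628 ± 0.106% (exact p = 0.00216 for both parts). All 19 had a fitted difference below 0 at 3 h, of -0.63 to -3.45 on the log2 scale, and in 18 of them it was smaller than at 0 h. It was also smaller in 70.8% of all tested genes lower at 0 h, and in 90% of the 50 at 100 CPM and over. All were chosen on their differences at 0 h, which are inflated, so this is no sign of recovery by itself.

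Of these 19, 5 were called at 3 h. Their libraries varied widely: the median SE was 0.42 on the log2 scale, against 0.26 for the other genes lower at 0 h. Their median log2 fold change was -1.37 at 3 h and -1.91 at 0 h, the time they were chosen on. The libraries moved together across the set: DMSO replicate 2 was the highest DMSO library in 18 of the 19 genes, and DAPT replicate 4 the lowest DAPT library in 18. The most abundant, TRINITY_DN1280_c0_g1, had 5845 to 20548 CPM in DAPT (median 12620) and 14135 to 37613 CPM in DMSO (median 16179; log2 fold change -0.63, SE 0.34, edgeR adjusted p = 0.454). TRINITY_DN2787_c2_g1 had 4684 to 16694 CPM in DAPT (median 7881) and 14872 to 43810 CPM in DMSO (median 18041; log2 fold change -1.21, edgeR adjusted p = 0.0705). In both the groups overlapped, in the second by 1 DAPT library.

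The count of 5 rested on DAPT replicate 2 in part. Without that library 12 of the 19 were called, without DMSO replicate 6 it was 8, and with surrogate variables all 19 were. TRINITY_DN134_c0_g1 was called with 313.2 to 891.3 CPM in DAPT (median 422.1) and 1163 to 3503 CPM in DMSO (median 1815; log2 fold change -2.05, edgeR adjusted p = 0.000545). Of the 8 equally abundant genes higher at 0 h, 7 were called again at 3 h, with a median log2 fold change of 1.57 at 3 h and 1.51 at 0 h.

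**Figure D5:**
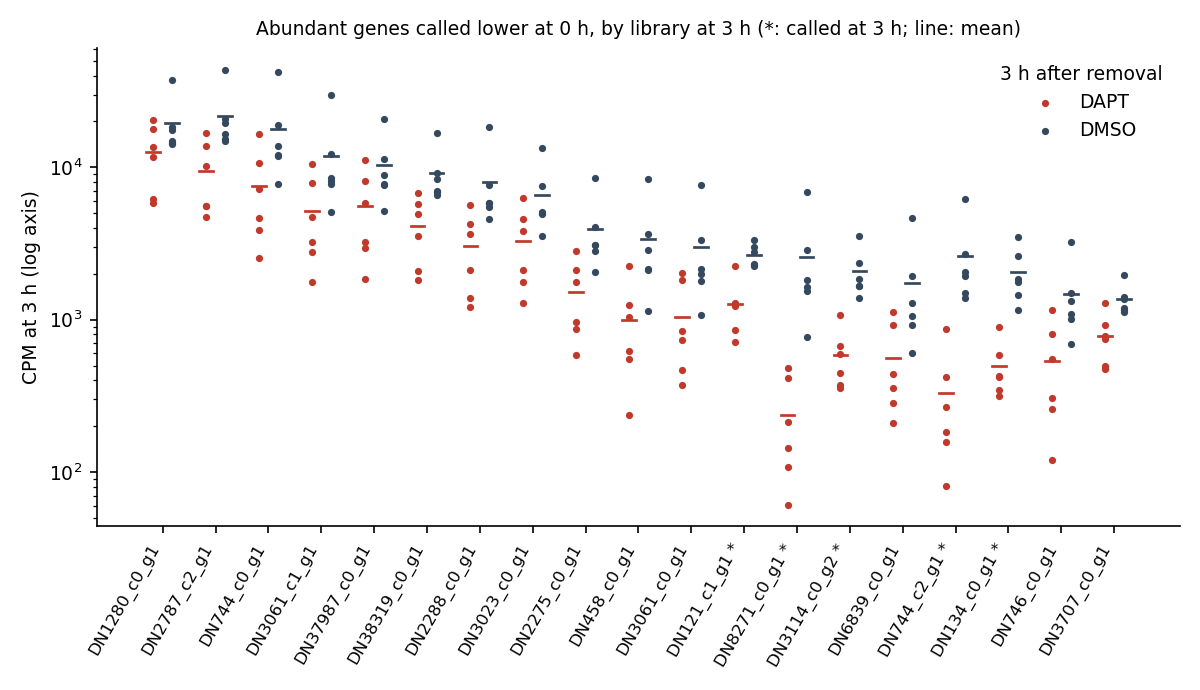
CPM on a log axis in every library of 3 h for the 19 genes with at least 1000 CPM that were called lower at 0 h, from the most abundant at 0 h on the left, with DAPT libraries in red left of DMSO libraries in dark blue and a line at each mean. An asterisk marks the 5 genes called at 3 h; the groups do not overlap in 4 of the 19.

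Genes that the assembly placed in 1 component, which share sequence, moved alike where more than 1 was called. Of 226 components with at least 2 tested genes, 13 held 2 called genes each, 10 with both lower and 3 with both higher, and 0 held calls in both directions. Of all calls 77% were lower, so unrelated called genes would often share a direction too. Components with only 1 called gene are not part of this count. The pair with the largest fold was TRINITY_DN448_c0_g1 and its relative, at -4.07 and -1.36 on the log2 scale. Shared reads between such relatives can make them move together.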

How the data were processed

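Strand-specific mRNA libraries of whole animals were sequenced with 100 bp reads on 3 lanes. No source used here assigns libraries to lanes. Per the labels, adapters, polyA and splice leader sequences were trimmed, and reads with a quality under 20, shorter than 30 bp or with an undetermined base were removed. RSEM, Bowtie2 and DESeq2 1.18.1 are listed, with no roles, per the submitters' processing notes. The values the authors deposited are expected counts (estimates, 98.95% of them not whole) for 12410 genes in 36 libraries, with no value of 0, so a gene at 0 in any library is not covered.

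Expected counts were rounded. For each time, the 12 libraries were fitted alone with edgeR 4.0.16 (R 4.3.3): filterByExpr, which at 3 h kept 11179 genes and removed 1231, TMM scaling, and the quasi-likelihood test with Benjamini-Hochberg adjustment. The fits of the times were scaled separately; levels set across 0 h and 3 h come from 1 fit of 24 libraries. Each SE is the log2 fold change divided by the root of its F statistic. CPM are TMM-scaled. Single values were compared with two-sided exact permutation tests. Alternatives were other scalings and filters, DESeq2 1.42.0, limma-voom (limma 3.58.1), surrogate variables (sva 3.50.0), a replicate block and libraries left out.

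Named genes are, per direction, the 6 with the smallest p, the 4 most abundant and the 3 with the largest fold among the calls, and the 3 genes called at 0 h with the smallest p for a return. TRINITY_DN1280_c0_g1, TRINITY_DN2787_c2_g1 and TRINITY_DN134_c0_g1 and the set of abundant genes were chosen after their values were seen. So were the genes named only for their call with surrogate variables. The members, lists and tests were chosen with earlier results of these data known. No source says that samples came from separate cultures, so p-values measure the spread between samples.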

Additional observations from a re-analysis of the deposited data

Results flagged for a closer look

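In 62 checks of library measures and named genes for a library far from the other 5 of its group, 8 were found, where chance gives about 3.1, and 6 of the 8 concern libraries of replicate number 2. The 20 top genes held 32.211% of all counts in DAPT replicate 2, against 25.704% to 27.148%, and 39.026% in DMSO replicate 2, against 24.841% to 28.965%. TRINITY_DN121_c1_g1 had 2253.5 CPM in DAPT replicate 2, against 711.24 to 1285.7 CPM, and TRINITY_DN624_c0_g1 had 3.2698 CPM there, against 10.503 to 13.771 CPM. In DMSO replicate 2, TRINITY_DN744_c2_g1 had 6149.9 CPM, against 1377.8 to 2699.1 CPM, and TRINITY_DN8271_c0_g1 had 6912.3 CPM, against 774.72 to 2881 CPM. TRINITY_DN1523_c0_g1 had 38.88 CPM in DMSO replicate 4, against 48.651 to 54.447 CPM. TRINITY_DN1822_c0_g1 had 1762.5 CPM in DMSO replicate 6, against 814.95 to 1133.1 CPM. The measures overlap, so these checks are not independent.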

How the results depend on the processing

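The excess of lower genes held in every setting tried, with 65.9% to 80.2% of the calls lower. With surrogate variables 1749 genes were called, 1152 lower and 597 higher, and 65.9% were lower against 77%; these held all 666 genes. Limma-voom with a weight per library, added after seeing the data, called 1006 genes, 280 of them higher. An adjusted p under 0.01 left 402 genes (312 lower, 90 higher), and the test beyond 1.5-fold 309 (246 lower, 63 higher), all at least 2-fold. Leaving out libraries gave 457 to 750 genes, 365 to 580 lower, 92 to 170 higher and 384 to 508 at least 2-fold; without replicate number 4 or 5 the higher genes were 92 and 97, and the higher genes called at 0 h and again at 3 h, 78 to 110 over all such settings, were 78 and 82. The lower genes called again were 259 to 316. The change from 0 h to 3 h was called in 10 genes with surrogate variables and in 0 in every other setting. The abundant genes lower at 0 h were called in 9 of 19 with library totals or limma-voom, 10 in the fit over 36 libraries, 14 by DESeq2, 15 with the replicate block and 18 with library weights. TRINITY_DN5649_c0_g1, near 0 at 3 h, ranged from -0.198 upward over libraries left out and turned to 0.0447 with library weights, 0.00514 without replicate number 2 and 0.00566 without DMSO replicate 2, and TRINITY_DN2374_c0_g1, from -0.538 upward, to 0.00594 without replicate number 2. The cause of these changes was not tested.

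Same-numbered DAPT and DMSO libraries deviated together with correlations of -0.26 to 0.42, and 3 of 6 DAPT libraries correlated best with their own number, so the numbers were not taken to pair the samples. With the replicate block 639 genes were called, 506 lower and 133 higher, and 479 at least 2-fold; 404 lower and 115 higher genes of 0 h were called again, the shares differed by -8.45 and 2.87 percentage points (exact p = 0.0312 for both, the smallest possible), and 0 genes changed from 0 h to 3 h.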
